A study of Mus musculus with 6 samples.

Results

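Messenger RNA of 7 genes of the liver X receptor (LXR) system was examined in cultured mouse erythroblasts, which are immature red cells that still hold a nucleus, with and without carbon dots. The genes are the receptor genes Nr1h2 and Nr1h3 and the sterol-responsive genes Abca1, Abcg1, Mylip, Lpcat3 and Apoe, which are 7 of the 17691 genes in the tables. They were chosen by their place in the pathway with their differences between treated and untreated libraries already known, by numbered pair and beside the macrophage gene Csf1r. Those differences are therefore given as a description, with no test. All 7 passed the filter on low counts that left 12283 genes.

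All cells came from fetal liver of C57BL/6J mice, lacked the late red cell antigen TER119 and were grown for 30 h with erythropoietin (Epo), the hormone of red cell production. The untreated group (Ctrl in the labels) has 3 libraries without carbon dots, and the CDs group has 3 libraries with 1 ug/ml of carbon dots, carbon nanoparticles made from the medicinal plant Codonopsis pilosula. Both groups carry the numbers 1 to 3, and libraries of 1 number are called a pair here because they deviated together from their group means. This was weak for number 2 (correlation 0.34). Libraries of different number were not compared, so the check cannot show which untreated and CDs libraries belong together. Neither the age of the fetuses nor the number of cultures is given in the labels.

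LXRs are nuclear receptors that bind oxysterols, the oxidised forms of cholesterol, and act on DNA together with a retinoid X receptor (RXR). When sterols are plentiful they switch on genes that carry cholesterol out of the cell and that limit its uptake, the reverse of the program of the sterol-sensing factor SREBP2. Macrophages are known for strong LXR activity, and the fetal liver holds macrophages that surround erythroblasts.

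The DNA element behind this control is shown first, because 3 of the genes described below carry 1 form of it near a start site. LXR and RXR are known to bind direct repeats of the half-site AGGTCA with 4 bases between the repeats. RefSeq promoters of GRCm38.p6 were found for 6 of the 7 genes (9 start sites, Abcg1 not among them), and the 250 bases before each start were searched on both strands. With at most 1 mismatch in each half-site no promoter of these genes held the repeat, against 1.48% of all 32851 promoters. With at most 3 mismatches in all and 2 in a half-site, a limit set after the first search, Abca1 alone of the 6 held it, against 15.8% of all promoters. Its half-sites, read on the strand of the gene as TGACCGNNNNTAACCC, occurred on either strand in 3 of the 32851 promoters, those of Abca1, Fasn and Srebf1. Fasn, the fatty acid synthase gene, and Srebf1, which encodes the lipogenic factor SREBP1, are themselves known LXR targets. The windows of 30 bases follow, 5′ to 3′ on the strand of the gene (the minus strand in each), with both half-sites in capitals.
Abca1: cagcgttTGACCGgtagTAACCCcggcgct
Fasn: gccacgaTGACCGgtagTAACCCcgcctga
Srebf1: acgacagTGACCGccagTAACCCcagcgcg

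The Abca1 window lies at chr4:53159940-53159969, with the repeat at bases -67 to -52 from a RefSeq start site, outside any GENCODE gene but inside the longest RefSeq span of Abca1. The Fasn window lies at chr11:120824750-120824779, also outside any GENCODE gene, and the Srebf1 window at chr11:60210631-60210660 falls in an intron of longer Srebf1 transcripts, ahead of an internal start site. Abca1 and Fasn share all 16 bases of the element, spacer included. A match of letters is a description and shows no binding. No window of Mylip, Lpcat3, Apoe, Nr1h2 or Nr1h3 held these letters, which says nothing of sites elsewhere.

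With CDs, the exporter gene Abcg1 was lower in all 3 pairs, by 10.3, 7.17 and 2.87 times, and Abca1, Mylip and Lpcat3 were lower in all 3 pairs by smaller factors. The receptor gene Nr1h2 was nearly level. Nr1h3 and Apoe were higher in all 3 pairs, as was Csf1r. Counting Nr1h2, 5 of the 7 genes were lower in all 3 pairs, where 26.2% of all genes tested were, and 2 of 7 were higher in all 3, where 30.2% were. Since the choice of the genes used this contrast, nothing is read from these counts.

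Depth hardly differed, with 17695997 expected counts in the smallest library and 20066581 in the largest. The libraries were not alike in markers of other cell types. The 20 macrophage markers summed to 173, 496 and 4286 CPM (counts relative to the TMM-scaled library total) in untreated 1 to 3 and to 398, 1628 and 5413 CPM in CDs 1 to 3. Among them 14 of the 15 tested were higher in all 3 pairs (93.3%, against 30.2% of all genes). The 15 include Csf1r, whose values were used in the choice of the genes examined here. The resident macrophage markers Cd163, Timd4, Vsig4 and Clec4f were at or near 0 in the 6 libraries and were not tested. Hepatocyte markers summed to 239 to 536 CPM untreated and 371 to 713 CPM with CDs. Endothelial markers summed to 11.3 to 89.0 and 19.7 to 109 CPM, and granulocyte markers to 269 to 2065 and 380 to 2130 CPM. These sums were higher with CDs in all 3 pairs. The factors were 1.21, 1.58 and 1.33 for hepatocyte, 1.74, 2.33 and 1.23 for endothelial and 1.41, 1.51 and 1.03 for granulocyte markers. DESeq2 with the replicate block called 4 of 11, 2 of 3 and 3 of 9 of them higher, against 8.98% of all genes. Megakaryocyte markers summed to 76.1, 79.5 and 82.3 CPM untreated and 105, 111 and 78.3 CPM with CDs, higher in pairs 1 and 2 and lower in pair 3, and 1 of the 6 (Pf4) was called higher by DESeq2 with the block. The 12 erythroid markers held 62626 to 74757 CPM untreated and 57951 to 73657 CPM with CDs, which was more than any other list. Their factors in pairs 1 to 3 were 0.966, 1.00 and 0.925. Of the 12, 5 were lower in all 3 pairs (41.7%, against 26.2% of all genes) and 0 were higher in all 3 (against 30.2%). DESeq2 with the block called 0 of the 12. In such bulk RNA, fewer cells of a type and less RNA per cell cannot be told apart. The part of other cell types in the results below was not tested.

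Abcg1 encodes a transporter that moves cholesterol from the cell to high-density lipoprotein. The gene (Entrez 11307) spans chr17:31057694-31117984 and overlaps no other RefSeq gene. It measured 106, 105 and 263 CPM in untreated 1 to 3 and 10.2, 14.6 and 91.6 CPM in CDs 1 to 3, from 2049, 2051, 5386, 179, 291 and 1899 counts. Every CDs library lay below every untreated library, and the highest CDs value, 91.6 CPM in CDs 3, stood just under the lowest untreated one. Abcg1, Mylip and Lpcat3, 3 of the 7 genes, had all CDs libraries below all untreated ones, as did 2.33% of all genes tested, and nothing is read from this either. The means were 158 ± 91.1 CPM (SD, n = 3) and 38.8 ± 45.7 CPM. The log2 fold change was -2.02 ± 0.98 (SE) in the edgeR fit with treatment as its only term and -2.51 ± 0.41 with the replicate block. By the blocked value Abcg1 ranked 3 from the lowest among 12283 genes. The rank is a description only, since Abcg1 was chosen with this difference known.

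The pairs did not differ alike in Abcg1. Pairs 1 and 2 had log2 differences of -3.37 and -2.84, and pair 3, whose libraries had the most macrophage marker RNA, had -1.52. Untreated 1 and 2 were level in Abcg1 while their Csf1r stood at 28.0 and 74.3 CPM. Within the CDs group the Abcg1 values spanned 8.94 times, and within the untreated group 2.51 times.

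**Figure D1:**
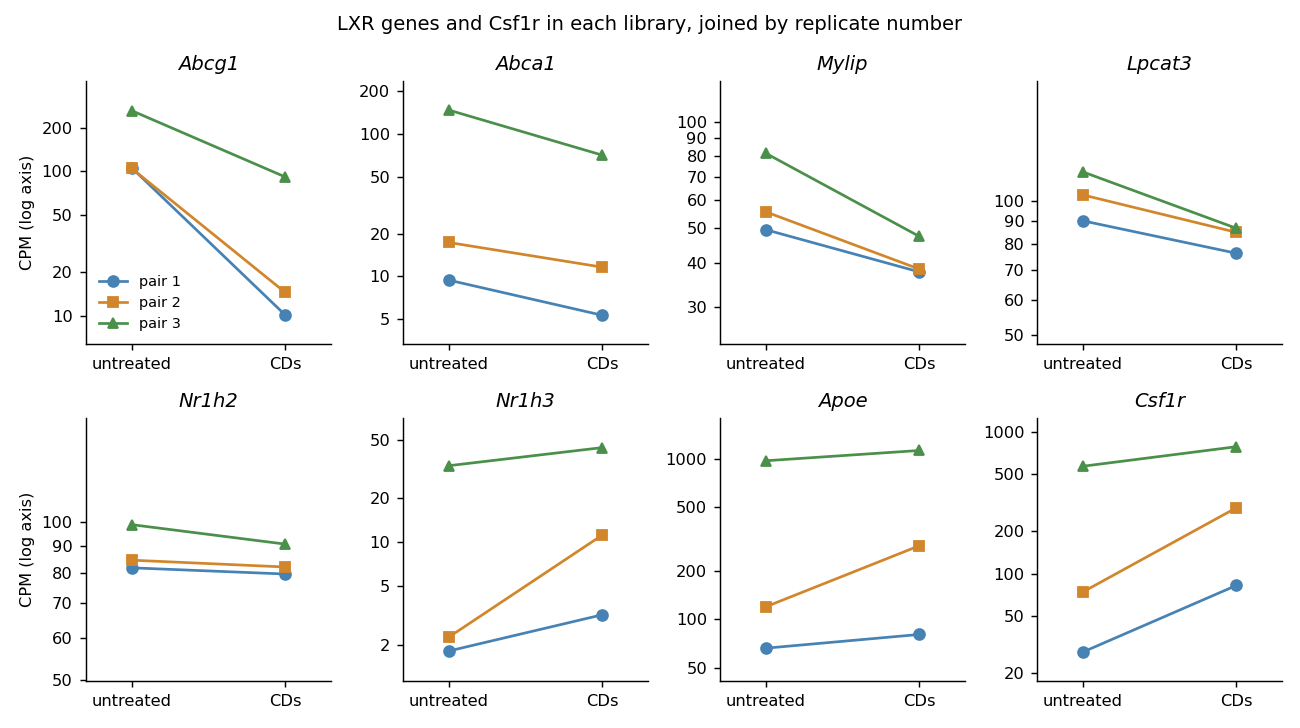
Level of each gene in CPM (log axis, scale differs by panel) in the untreated and CDs library of each numbered pair, joined by a line. The Abcg1 lines of pairs 1 and 2 run from 106 and 105 down to 10.2 and 14.6 CPM, while every Csf1r line runs up.

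Abca1 encodes the transporter that loads cholesterol and phospholipid onto apolipoprotein A-I. The gene (Entrez 11303) spans chr4:53030789-53159988. It measured 9.40, 17.3 and 148 CPM in untreated 1 to 3 and 5.32, 11.6 and 71.3 CPM in CDs 1 to 3, the lowest from 93 counts. The groups overlapped widely, since both libraries numbered 3 stood far above the rest, yet each CDs library was below its partner, by 1.77, 1.49 and 2.07 times. The log2 fold change was -0.98 ± 1.41 (SE) without the block and -0.84 ± 0.11 with it. Without untreated 3 the unblocked value turned to 1.14, since CDs 3 then had no high untreated library beside it.

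Mylip encodes the ubiquitin ligase, also called IDOL, that limits how much lipoprotein cholesterol a cell takes up. The gene (Entrez 218203) spans chr13:45389742-45411940 and overlaps no other RefSeq gene, and its counts were not whole numbers in any library. It measured 49.6, 55.7 and 81.5 CPM untreated and 37.7, 38.4 and 47.5 CPM with CDs. The CDs libraries lay below the untreated ones on this scale, but in the FPKM table the values of CDs 3 (16.4) and untreated 1 (16.0) crossed. Pair differences were -0.40, -0.54 and -0.78 (log2), and the fitted values -0.60 ± 0.23 (SE) and, with the block, -0.57 ± 0.09.

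Lpcat3 encodes the acyltransferase that puts polyunsaturated chains into membrane phospholipids. The gene (Entrez 14792) spans chr6:124663094-124704716 and overlaps Emg1. Its counts, like those of Mylip, were not whole numbers in any library. It measured 90.1, 103 and 116 CPM untreated and 76.2, 84.9 and 86.7 CPM with CDs, without overlap. As for Mylip, the groups overlapped in FPKM, at 46.4 to 66.5 and 42.7 to 49.7. Pair differences were small, at -0.24, -0.28 and -0.42 (log2), and the fitted value was -0.32 ± 0.14 (SE), or -0.31 ± 0.06 with the block.

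Apoe encodes apolipoprotein E, a carrier of cholesterol in lipoproteins that macrophages and hepatocytes secrete. The gene (Entrez 11816) spans chr7:19696244-19701310. It measured 66.2, 120 and 976 CPM untreated and 80.6, 288 and 1131 CPM with CDs. Both libraries numbered 3 stood far above the others, and each CDs library was above its partner, by 1.22, 2.40 and 1.16 times. The log2 fold change was 0.37 ± 1.35 (SE), and 0.59 ± 0.25 with the block. Without untreated 1, untreated 2 or CDs 3 the unblocked value was -0.14, -0.06 or -1.07, and without untreated 3 it was 2.42.

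The receptors differed from each other. Nr1h2 (Entrez 22260, chr7:44549616-44553968) encodes LXR beta, the form found in most tissues. It measured 81.8, 84.6 and 98.9 CPM untreated and 79.6, 82.1 and 90.8 CPM with CDs. Pair differences were -0.04, -0.04 and -0.12 (log2), and the blocked value was -0.07 ± 0.06 (SE). The groups overlapped almost wholly.

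Nr1h3 (Entrez 22259, chr2:91184061-91202829, overlapping Acp2 in part) encodes LXR alpha, the form known from macrophages, liver and fat. It measured 1.81, 2.25 and 33.4 CPM untreated and 3.20, 11.2 and 44.4 CPM with CDs, the lowest from 35 counts. The CDs library was higher in each pair, by 1.77, 4.96 and 1.33 times, with a blocked value of 1.06 ± 0.41 (SE). The groups overlapped, and without CDs 3 the unblocked value of 0.65 ± 1.46 (SE) turned to -0.80 and without untreated 3 it was 3.27.

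**Figure D2:**
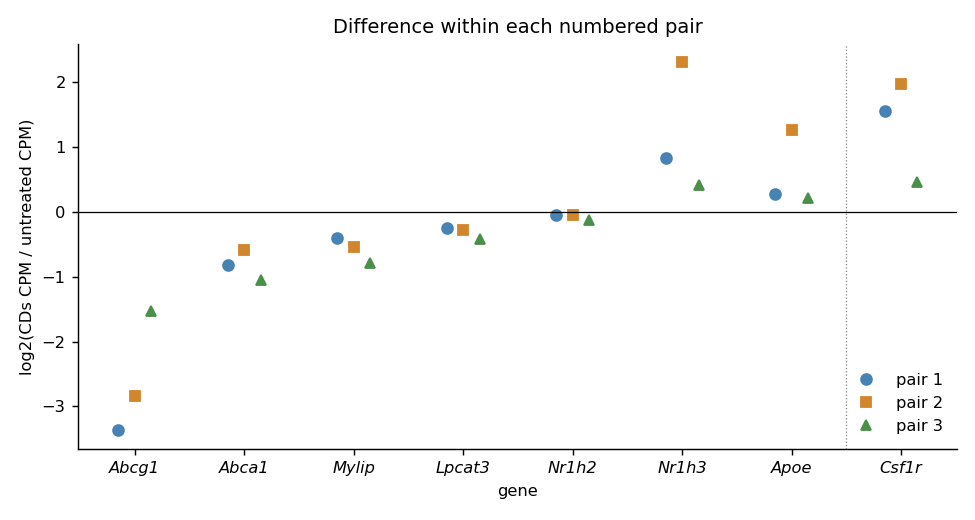
Log2 ratio of CDs to untreated CPM within each numbered pair, 1 point per pair, for the 7 genes and Csf1r (right of the dotted line). Abcg1, Abca1, Mylip and Lpcat3 lie below 0 in every pair, and Nr1h3, Apoe and Csf1r above 0.

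Among the untreated libraries alone, a spread within 1 group, the 7 genes fell apart by size. Between the lowest and the highest untreated library Nr1h3 differed 18.5 times, Abca1 15.7 times and Apoe 14.7 times, beside 20.4 times for Csf1r. Abcg1 differed 2.51 times, Mylip 1.64 times, Lpcat3 1.29 times and Nr1h2 1.21 times. The first 3 genes thus varied by factors like that of Csf1r, and the other 4 did not.

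Csf1r, the receptor of the macrophage growth factor CSF1, measured 28.0, 74.3 and 571 CPM untreated and 82.5, 291 and 784 CPM with CDs. Its own pair differences of 1.56, 1.97 and 0.46 (log2) enter every ratio to it, and 87.2% of the other genes tested had a lower ratio in the CDs library of all 3 pairs. Set against Csf1r of the same library, Abca1 stood at -1.57, -2.10 and -1.95 (log2 ratio of CPM) in untreated 1 to 3 and at -3.95, -4.65 and -3.46 in CDs 1 to 3. On this scale the Abca1 groups no longer overlapped, with means of -1.87 ± 0.27 (SD, n = 3) and -4.02 ± 0.60. All CDs ratios lay below all untreated ones for 1.92% of the other genes. The choice of the genes used the comparison with Csf1r too, so nothing is read from that share. The Abca1 ratio differed by -2.38, -2.55 and -1.51 within pairs, of which Abca1 itself made -0.82, -0.58 and -1.05. Abcg1 stood at 1.92, 0.50 and -1.12 untreated and at -3.01, -4.31 and -3.10 with CDs, again without overlap. Its difference within pairs was -4.93, -4.81 and -1.98.

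Nr1h3 kept close to Csf1r, at -3.95, -5.04 and -4.10 untreated and -4.69, -4.70 and -4.14 with CDs, and the pairs differed in sign. The Apoe ratio was 1.24, 0.69 and 0.77 untreated and -0.03, -0.01 and 0.53 with CDs, lower in each pair although Apoe itself was higher, so this difference came from the denominator. Nr1h2, Mylip and Lpcat3, which vary little, had ratios that overlapped between groups. In pairs 1 and 2 their ratio differences came mainly from the denominator. In pair 3 Mylip itself made -0.78 of its ratio difference of -1.23, and Lpcat3 -0.42 of -0.87.

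**Figure D3:**
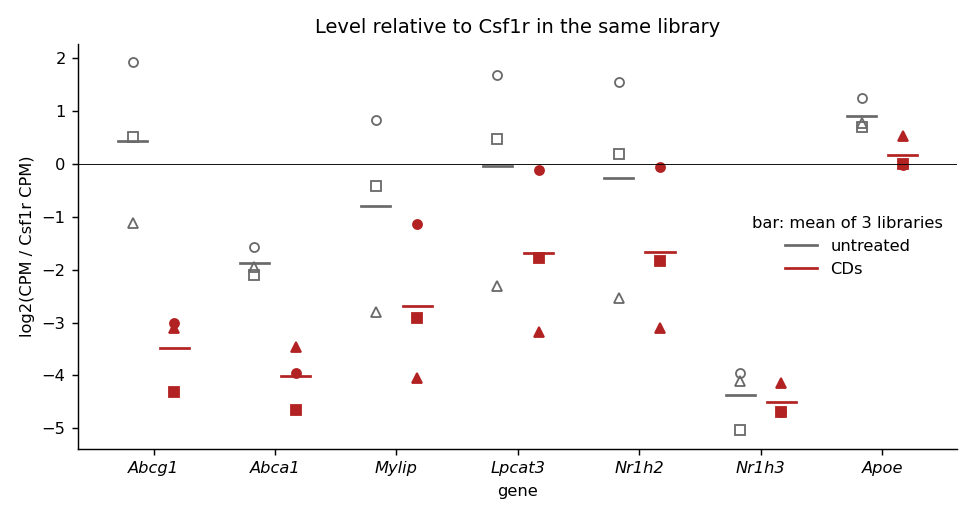
Log2 ratio of each gene's CPM to that of Csf1r in the same library, open grey symbols for untreated and filled red for CDs (circle, square and triangle for numbers 1, 2 and 3), with a bar at the mean of 3. Abcg1, Abca1 and Apoe show no overlap between the groups, and the Nr1h3 groups overlap.

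Per length, in FPKM (fragments scaled by gene length and library size), the order among untreated libraries was Apoe (mean 327 ± 436, SD, n = 3), Lpcat3 (56.3 ± 10.1), Nr1h2 (43.6 ± 5.71), Abcg1 (26.7 ± 16.1), Mylip (20.5 ± 6.16), Nr1h3 (7.24 ± 10.6) and Abca1 (5.64 ± 7.61). With CDs it was Apoe (430 ± 488), Lpcat3 (46.1 ± 3.49), Nr1h2 (42.2 ± 4.29), Mylip (13.8 ± 2.29), Nr1h3 (11.4 ± 13.1), Abcg1 (6.76 ± 8.11) and Abca1 (2.91 ± 3.66). Abcg1 thus went from rank 4 to rank 6. Neighbours in the untreated order overlapped in range in every case. With CDs only Apoe and Lpcat3, and Nr1h2 and Mylip, did not overlap.

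The genes closest to Abcg1 in pattern, by Pearson's r of log2 CPM over the 6 libraries, were Plpp1 (r = 0.9779), Dnajc4 (0.9690) and Cfap126 (0.9533), among genes with a mean of at least 1 CPM, provisional gene models left out. Their spans were smaller. Plpp1, a lipid phosphatase gene, ran from 3.89 CPM in CDs 1 to 7.77 CPM in untreated 3. Abca1 was most like Bbc3 (0.9971), Mylip most like Scfd1 (0.9815), Lpcat3 most like Srr (0.9895), Nr1h2 most like Ppp1r15a (0.9928), Nr1h3 most like Hpcal1 (0.9995) and Apoe most like Prpsap2 (0.9998). With 6 libraries in 3 pairs and so many genes searched, values this close to 1 are a description only.

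A list of 70 further LXR pathway genes, written from textbook roles but with earlier results of these data known, shows how far the rest of the system differed. Of these 68 were in the tables and 60 were tested. With treatment as its only term, edgeR's quasi-likelihood test called 0 of the 60 and 0% of all 12283 genes, at an adjusted p of 0.05. That test had 127 genes with an unadjusted p under 0.05, and on the same design DESeq2 called 14 genes and limma-voom 0. With the replicate block edgeR called 5 genes (0.0407%), again 0 of the 60, and 3667 genes had an unadjusted p under 0.05. Without pair 1, 2 or 3 the blocked test called 0, 899 or 1835 genes, of which 0, 9 or 23 were on the list. DESeq2 with the block called 13 of the 55 listed genes with an adjusted p higher (23.6%) and 2 lower (3.64%), against 8.98% and 2.42% of 10616 genes. Of the 60 genes 30 were higher in all 3 pairs (50%, against 30.2% of all genes) and 7 were lower in all 3 (11.7%, against 26.2%). All CDs libraries lay below all untreated ones for 2 of the 60, Soat2 and Gramd1c, and above them for 2, Scarb1 and Vldlr, against 2.33% and 2.37% of all genes, which is near the background. Vldlr rested on only 6 to 14 counts per library and Gramd1c on 24 to 50. Neither had an adjusted p in DESeq2 with the block. The median log2 fold change without the block was 0.24 over the 60 genes, -0.32 over the 7 and 0.01 over all genes.

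In the paragraphs on the lists, values with ± are log2 fold changes from edgeR with the block. Of 5 substrates and partners of Mylip with an adjusted p, DESeq2 with the block called 2 higher (40%, against 8.98% of all genes). Of 3 ubiquitin-conjugating enzyme genes, Ube2d1, named after its values were seen, was called higher (0.90 ± 0.22, SE, DESeq2 adjusted p = 0.024, edgeR 0.0996, both with the block) and spanned 9.28 times among untreated libraries. Ube2d3 (-0.03 ± 0.06) and Ube2d2a (-0.04 ± 0.06) did not pass. Ube2d3 measured 334 to 354 CPM in the untreated libraries and 319 to 360 CPM with CDs, so the groups overlapped.

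Of 7 other exporters with an adjusted p, DESeq2 with the block called 1 lower (14.3%, against 2.42% of all genes) and 2 higher (28.6%, against 8.98%). Abcg4, a close relative of Abcg1, was lower in all 3 pairs. It measured 293, 303 and 202 CPM untreated and 266, 242 and 136 CPM with CDs (-0.35 ± 0.09, SE, DESeq2 adjusted p = 0.0359 and edgeR adjusted p = 0.105, both with the block). Abcg2 (-0.08 ± 0.06) and Abca7 (0.00 ± 0.07) did not pass. Scarb1, the receptor that exchanges cholesterol with high-density lipoprotein, named after its values were seen, was 137, 146 and 129 CPM untreated and 172, 174 and 164 CPM with CDs. All its CDs libraries lay above the untreated ones, where 2.37% of all genes did so (0.31 ± 0.06, DESeq2 adjusted p = 0.0348 with the block, edgeR 0.0916).

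Of 15 other LXR targets tested, 2 were lower in all 3 pairs (13.3%, against 26.2% of all genes) and 5 were higher (33.3%, against 30.2%, near the background). Srebf1 measured 108, 105 and 117 CPM untreated and 123, 89.2 and 71.7 CPM with CDs, higher in pair 1 and lower in pairs 2 and 3 (-0.25 ± 0.19 with the block, which did not pass). Fasn, whose promoter element matches that of Abca1, was higher in each pair, where Abca1 was lower. It went from 78.5, 68.5 and 43.8 CPM to 142, 94.6 and 47.2 CPM. Fasn did not pass (0.48 ± 0.15, DESeq2 adjusted p = 0.0622, edgeR 0.133, both with the block). Of the 3 genes with this element, Abca1 was thus lower and Fasn higher in each pair, and Srebf1 was mixed. Neither Fasn nor Srebf1 was called, and any part of the element was not tested. The desaturase gene Scd2 (-0.65 ± 0.33) and the lipase gene Lpl (1.12 ± 0.35) did not pass, and Lpl spanned 23.2 times among untreated libraries. Cd5l, a macrophage secreted protein gene named after its values were seen, was the single lower call on this list (7.14%, against 2.42% of all genes). It ran from 0.629 CPM in CDs 1 to 14.6 CPM in untreated 3. Pair differences were -1.15, -1.75 and -0.56 (log2, DESeq2 adjusted p = 0.0441, edgeR 0.104, both with the block). The single higher call (7.14%, against 8.98% of all genes) was Mertk, a phagocytic receptor gene, also named so. Its value was 1.25 ± 0.31 (DESeq2 adjusted p = 0.000148, edgeR 0.108, both with the block). It spanned 48.1 times among untreated libraries.

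Genes of sterol release and transport gave the most higher calls, 6 of 11 in DESeq2 with the block (54.5%, against 8.98% of all genes). Npc2, the lysosomal cholesterol carrier, measured 43.9, 62.0 and 375 CPM untreated and 71.5, 160 and 503 CPM with CDs. Its value was 0.82 ± 0.20 (DESeq2 adjusted p = 0.000856, edgeR 0.109, both with the block). The others were Npc1, Lipa, Nceh1, Soat1 and Gramd1a, named after their values were seen. These 6 differed 3.56 to 16.0 times among untreated libraries and were highest in untreated 3, as the 15 tested macrophage markers were. Soat2, a sterol esterifying enzyme gene also named after its values were seen, had all CDs libraries (31.6 to 39.8 CPM) below all untreated ones (41.3 to 49.0 CPM), as 2.33% of all genes did, and was not called. Tspo (0.15 ± 0.07) and Osbp (0.01 ± 0.06) did not pass.

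RXR partners and co-regulators gave 1 call of 10 in DESeq2 with the block (Ncoa3, higher, named after its values were seen). That is 10%, near the 8.98% of all genes called higher. Ncor1 was at -0.02 ± 0.09, Ep300 at 0.12 ± 0.06 and Med1 at -0.07 ± 0.06. Only 2 of the 6 oxysterol enzyme genes were tested and neither passed, with Cyp27a1, a sterol hydroxylase gene, at 0.92 ± 0.38. Of the other acyltransferases Lpcat2 alone was called higher (16.7%, against 8.98% of all genes). Its value was 0.78 ± 0.25 (DESeq2 adjusted p = 0.0266, edgeR 0.139, both with the block), and it spanned 18.2 times among untreated libraries. Lpcat1 (-0.14 ± 0.08) and Mboat7 (0.51 ± 0.11) did not pass.

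**Figure D4:**
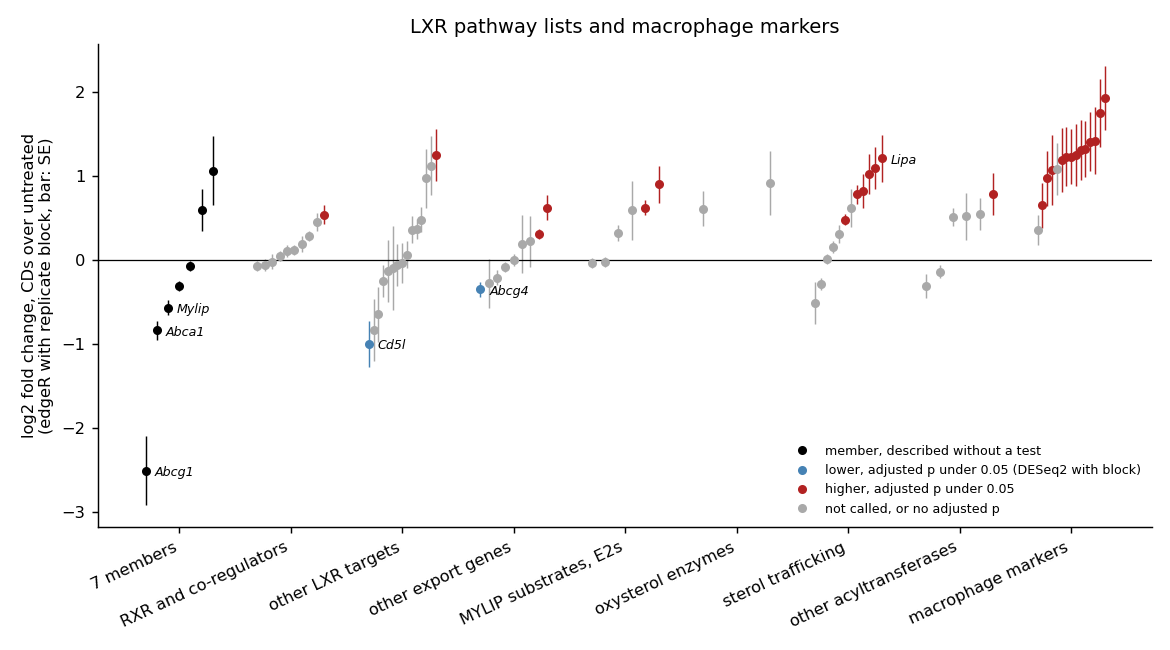
Log2 fold change of CDs over untreated from edgeR with the replicate block (bars are SE), 1 point per tested gene, by list. Black points are the 7 main genes. Blue and red points were called lower and higher by DESeq2 with the block, and grey points were not called or had no adjusted p. Abcg1 at -2.51 is the lowest point of all lists. Of the macrophage markers 13 of 15 are red, where 8.98% of all genes were called higher. The 13 include Csf1r, whose values the choice of the 7 genes used.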

How the data were processed

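Per the labels' protocols, oligo(dT)-selected RNA was copied with random primers and read from 1 end over 50 bases, with no step that marks strand. Tools listed in the submitters' processing notes, without their roles, were RSEM 1.2.12, HISAT2 2.0.4, DESeq2 1.4.5 and Bowtie2 2.2.5, with the build GRCm38.p6. The authors deposited expected counts (30.1% of values not whole), rounded here, and a table of FPKM, a unit inferred because counts over FPKM and total give 1 length per gene. For the 7 genes the tables differed by at most 0.0328 (RMS log2), against a median of 0.00573 over 9238 genes.

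Counts were filtered with filterByExpr (12283 genes), scaled by TMM and fitted with edgeR 4.0.16 (quasi-likelihood, robust) in R 4.3.3, treatment only, with Benjamini-Hochberg adjustment over all genes and a threshold of 0.05. The SE of an edgeR log2 fold change was its absolute value divided by the square root of the F statistic of its test. It is therefore not the SE of the pair differences. The expected-count tests were repeated with DESeq2 1.42.0, limma-voom 3.58.1, a replicate block and other settings. Scripts were tested on simulated data. Same-numbered deviations correlated at 0.91, 0.34 and 0.94 (limit 0.1), so numbers were taken as pairs. Deviations of libraries with different numbers were not compared. All pair counts and blocked fits therefore rest on the numbering. The labels name no separate cultures or animals, so the p-values rest on the spread of these libraries alone, which may be technical. The genes and lists were chosen with earlier results of these data known. Named list genes are the 3 most abundant tested ones of each list, and exceptions are marked. Results for 2 of these list genes are not reported here. Positions are RefSeq gene spans of GRCm38.p6, and promoters are RefSeq's.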

Additional observations from a re-analysis of the deposited data

How the results depend on the processing

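Over 20 alternatives (17 planned, and 3 chosen after seeing the data that left out 1 pair from the blocked edgeR fit) the log2 fold changes of Abcg1, Mylip and Lpcat3 stayed below 0 in all 20. Those of Abca1 and Nr1h2 did in 19, all but the fit without untreated 3 (1.14 and 0.02). Nr1h3 was above 0 in 18 and Apoe in 16, and with Csf1r as a covariate they were -0.24 and -0.73, Abca1 -2.06, Abcg1 -3.10 and the median of the 7 genes -0.73. With 1 library left out Abcg1 ran from -3.67 (without CDs 3) to -1.44 (without untreated 3) and the median of the 7 genes from -0.80 to 0.02. The number of genes called was 0 in the treatment-only edgeR fit and in each fit that left out 1 library, 14 in DESeq2 with treatment only, 27 with the Csf1r covariate, 5 in edgeR, 6 in limma-voom and 1210 in DESeq2 with the replicate block. Blocked edgeR called 899 genes without pair 2, 1835 without pair 3 and 0 without pair 1. Of the 60 further LXR genes 0 were called in the treatment-only fit, 1 with the covariate (Arl4c, lower), 15 in DESeq2 with the block, and 9 and 23 in blocked edgeR without pair 2 or pair 3. The cause of these differences was not tested. Depth limits Nr1h3 most, with 35 counts in its lowest library.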
